A study of Homo sapiens with 6 samples.

Results

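The genes described here encode 10 factors that bind the capped end of nuclear RNA or take messenger RNA to the nuclear pore. They are NCBP1, NCBP2, NCBP3, SRRT, ZC3H18, PHAX, ALYREF, NXF1, THOC1 and THOC2. They were listed by name for their known roles, but with earlier results of these data known. The files hold counts for 60675 genes, of which 18075 had enough reads to be tested, and all 10 factors were among those tested. The libraries came from PLC/PRF/5, a human hepatocellular carcinoma (HCC) cell line grown in DMEM with fetal bovine serum. There were 3 control libraries and 3 libraries of cells with knockdown of MTR4 (MTR4 KD). The study lowered MTR4 with short hairpin RNA delivered by lentivirus, and its text describes this RNA-seq as a comparison of cells without and with doxycycline, which switches on the MTR4 hairpin in them. In that design doxycycline itself and the loss of MTR4 cannot be told apart in these 6 libraries. The labels name the groups only as control and MTR4 KD, without doxycycline or a time, and nothing in them says that replicates were separate cultures, so the p-values measure the spread between these libraries, which may be technical.

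A new RNA polymerase II transcript receives a cap, which the cap-binding complex of NCBP1 and NCBP2 holds in the nucleus. SRRT (ARS2) joins this complex and connects it either to factors that lead the RNA to export or to factors that lead it to the nuclear exosome, the main nuclear RNA-degrading complex. MTR4, encoded by MTREX, is the RNA helicase that feeds RNA to the nuclear exosome, and ALYREF and ZC3H18 belong to the export and decay branches that meet at the capped RNA. The comparison of control with MTR4 KD asks whether cells with less MTR4 held different amounts of the RNAs for these partners and competitors. It reads RNA amounts only, not protein, binding or export.

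The knockdown itself was measured first. MTREX (ENSG00000039123, GRCh38 chr5:55307989-55425579) had 72.2, 87.4 and 74.4 counts per 1000000 reads on genes (CPM, scaled by the TMM method) in the control libraries and 44.6, 48.8 and 44.1 CPM in the MTR4 KD libraries, listed here and throughout in the order of replicates 1 to 3. Every MTR4 KD library was below every control library. MTREX fell by 0.77 on the log2 scale (95% interval -0.98 to -0.56, adjusted p = 0.00641, edgeR quasi-likelihood test), so the knockdown was partial at the RNA level. A fit that also held the library set described next gave -0.82 (adjusted p = 3.62e-07).

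The libraries held 60686786 to 72708682 reads on genes. They formed 2 library sets by the share of reads with a non-unique alignment, which was 34.7% to 37.5% for replicate 3 of both groups and control replicate 1, and 14.8% to 18.2% for replicate 2 of both groups and MTR4 KD replicate 1. Both conditions are in each set, and a further fit had the library set as a covariate. All 13 hepatocyte and epithelial markers passed the filter on low counts, and their summed level was 25871 to 27511 CPM (without TMM scaling) in control and 26183 to 27564 in MTR4 KD. In the condition-only fit 3 of the 13 (ALB, APOA1 and TTR) were called higher in MTR4 KD and 1 (KRT18) lower. That is 30.8% of these markers, against 3.60% of all genes tested. Of these markers 53.8% did not overlap between the groups, against 24.7% of all genes tested. On the same scale the summed level was 8.23 to 14.7 in control and 6.59 to 11.3 in MTR4 KD for fibroblast markers, 0.0988 to 0.399 and 0.247 to 0.568 for endothelial markers, and 3.25 to 6.11 and 2.88 to 20.4 for blood cell markers, where 1 of the 6 markers had 1086 reads in MTR4 KD replicate 1. The part of these markers in the results below was not tested.

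None of the 10 cap-binding and export factors passed the test between control and MTR4 KD. At adjusted p under 0.05, edgeR called 0 of the 10, against 3.60% of all 18075 genes tested, and 0 of the 10 had an unadjusted p under 0.05, against 18.8% of all genes. DESeq2 and limma-voom also called 0 of the 10, against 8.36% of the 16301 genes to which DESeq2 gave an adjusted p and 3.38% of all genes with limma-voom. Mean levels were higher in MTR4 KD for 7 factors and lower for 3, and the median log2 fold change was 0.04, beside 0.01 over all genes tested. The 95% intervals of all 10 held 0, and their outermost bounds were -0.34 and 0.35, so the largest change inside any interval was 1.27-fold in either direction. A change inside these bounds could not be told from none at this spread. The factors had 1056 to 15415 reads in a library, and counting error at the lowest of these is 3.08%.

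**Figure D1:**
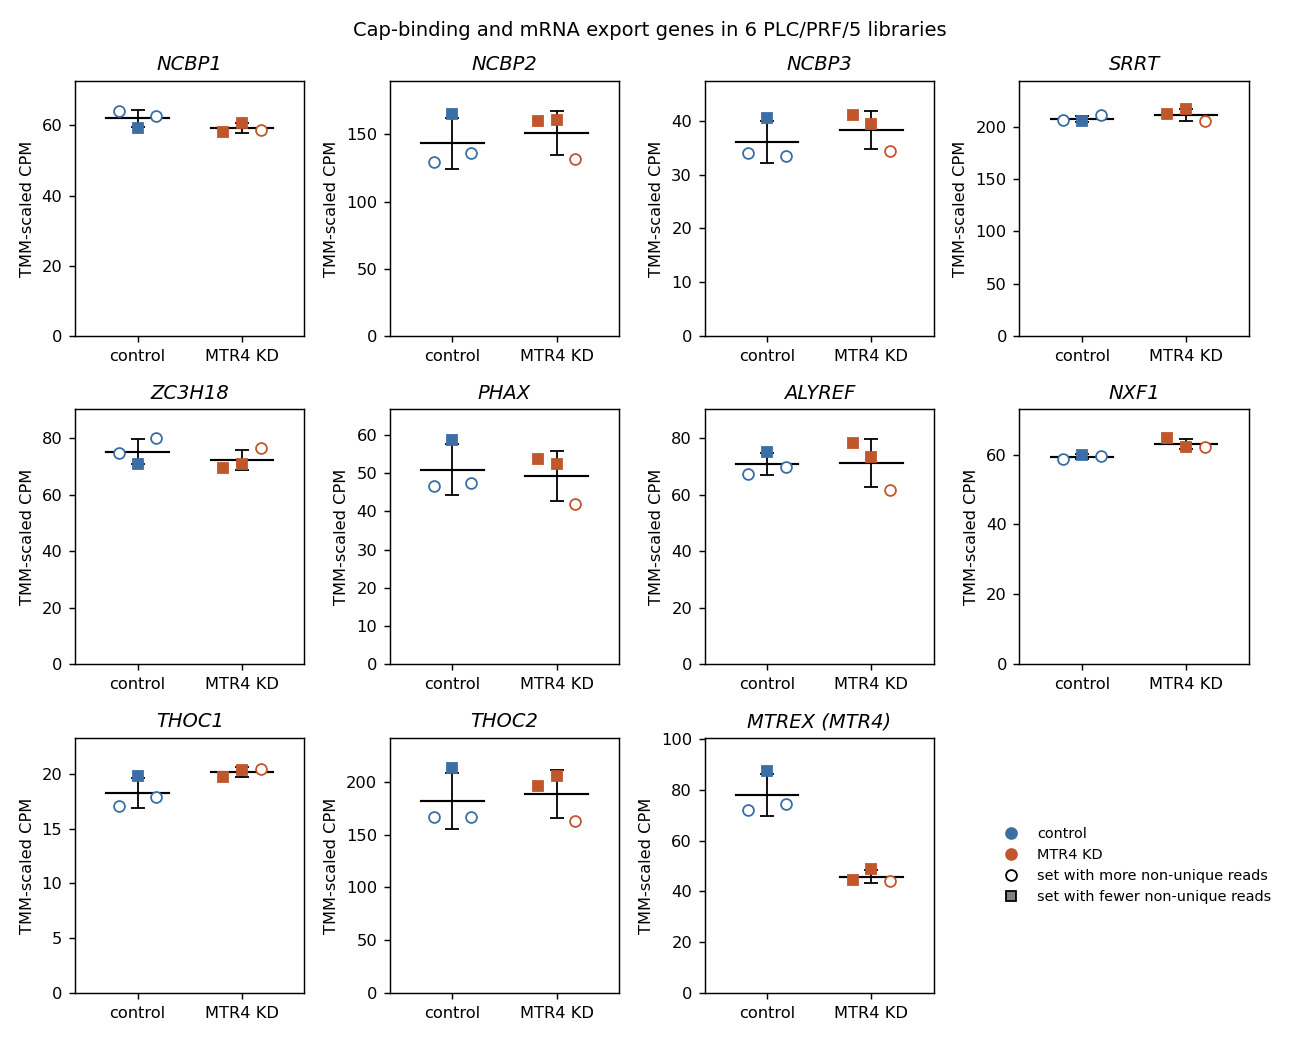
TMM-scaled CPM (linear axis from 0) of the 10 factors and of MTREX in each of the 6 libraries. Points are libraries, bars are the group mean ± SD (n = 3), and open circles and filled squares mark the library sets whose share of non-unique reads was larger and smaller, respectively. MTREX was lower in all 3 MTR4 KD libraries, whereas the control and MTR4 KD libraries of 9 of the 10 factors overlapped.

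The cap-binding subunits came first. NCBP1 (ENSG00000136937, chr9:97633821-97673748), the large subunit that stabilises the complex and carries its contacts to other factors, had 64.2, 59.3 and 62.6 CPM in control and 58.2, 60.7 and 58.7 CPM in MTR4 KD. The groups overlapped through control replicate 2 and MTR4 KD replicate 2. The log2 fold change was -0.07 (95% interval -0.20 to 0.07, adjusted p = 0.601), and -0.05 with the library set as a covariate (adjusted p = 0.499).

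NCBP2 (ENSG00000114503, chr3:196935406-196942528), the small subunit that contacts the cap itself, had 129.4, 165.0 and 136.0 CPM in control and 159.7, 160.8 and 131.9 CPM in MTR4 KD. Control replicate 2 and MTR4 KD replicates 1 and 2 were high and the other 3 libraries were low, which is the division of the library sets and not of the conditions. MTR4 KD over control gave a log2 fold change of 0.07 (95% interval -0.20 to 0.35, adjusted p = 0.795), and with the library set as a covariate it was -0.03 (adjusted p = 0.723).

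NCBP3 (ENSG00000074356, chr17:3802158-3846246), a further cap-binding protein reported to pair with NCBP1, divided the libraries in the same way. It had 34.1, 40.6 and 33.5 CPM in control and 41.2, 39.4 and 34.4 CPM in MTR4 KD. In edgeR the log2 fold change was 0.09 (95% interval -0.15 to 0.33, adjusted p = 0.705) and 0.01 with the library set as a covariate (adjusted p = 0.947).

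SRRT (ENSG00000087087, chr7:100875103-100888664), the ARS2 scaffold, was among the steadiest of the factors. Its levels were 206.6, 205.3 and 210.6 CPM in control and 211.6, 216.6 and 205.3 CPM in MTR4 KD. The estimated log2 fold change was 0.03 (95% interval -0.10 to 0.15, adjusted p = 0.850), and 0.02 with the library set as a covariate (adjusted p = 0.801).

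ZC3H18 (ENSG00000158545, chr16:88570403-88631964) is a zinc finger protein that bridges the cap-binding complex to the NEXT complex of the nuclear exosome. It had 74.7, 71.0 and 79.9 CPM in control and 69.5, 70.8 and 76.4 CPM in MTR4 KD. It was the factor in which the set with more non-unique reads was the higher one in both conditions. The log2 fold change was -0.06 (95% interval -0.22 to 0.11, adjusted p = 0.711), and -0.02 with the library set as a covariate (adjusted p = 0.828).

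PHAX (ENSG00000164902, chr5:126600947-126627252), the adaptor that takes capped small nuclear RNA to its export receptor, had 46.5, 58.6 and 47.5 CPM in control and 53.7, 52.2 and 41.8 CPM in MTR4 KD. Control replicate 2 was the highest library and MTR4 KD replicate 3 the lowest, and the groups overlapped. MTR4 KD over control gave a log2 fold change of -0.05 (95% interval -0.34 to 0.25, adjusted p = 0.881).

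With the library set as a covariate, PHAX was the 1 factor of the 10 that passed the test. It was lower in MTR4 KD, with a log2 fold change of -0.16 (95% interval -0.26 to -0.06, adjusted p = 0.0298), and the log2 difference was -0.17 within the set with more non-unique reads and -0.15 within the set with fewer. That fit called 20.2% of all genes tested and 10.8% as lower, so 1 call among 10 factors is near the background. Leaving out each library in turn in the same fit gave log2 fold changes of -0.17 to -0.13 with adjusted p of 0.0502 to 0.198, so the call was lost in all 6 of those fits, and the factor is given here without a call.

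ALYREF (ENSG00000183684, chr17:81887835-81891587) opens the export group. It is the adaptor of the TREX complex that passes the messenger RNA to the export receptor, and it competes with MTR4 for the capped transcript. Its levels were 67.4, 75.0 and 69.9 CPM in control and 78.2, 73.2 and 61.7 CPM in MTR4 KD. The MTR4 KD libraries held both the highest and the lowest value of the 6. In edgeR the log2 fold change was 0.01 (95% interval -0.22 to 0.23, adjusted p = 0.981), and its sign turned under several settings, with -0.07 when the library set was a covariate (adjusted p = 0.389).

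NXF1 (ENSG00000162231, chr11:62792130-62805440), the receptor that carries messenger RNA through the pore, had 58.7, 59.9 and 59.6 CPM in control and 64.8, 62.1 and 62.2 CPM in MTR4 KD. It was the 1 factor whose groups did not overlap, with all 3 MTR4 KD libraries above all 3 control libraries. Over all genes tested, 24.7% did not overlap between the groups, so 1 of 10 is below that background. The estimated log2 fold change was 0.09 (95% interval -0.04 to 0.21, adjusted p = 0.451), and 0.08 with the library set as a covariate (adjusted p = 0.252).

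THOC1 (ENSG00000079134, chr18:214520-268047), a subunit of the THO core of TREX, had the fewest reads of the factors. It had 17.1, 19.8 and 17.9 CPM in control and 19.7, 20.4 and 20.5 CPM in MTR4 KD. Only control replicate 2 reached into the range of the MTR4 KD libraries. Its log2 fold change, 0.14 (95% interval -0.05 to 0.33, adjusted p = 0.399), was the largest of the 10 in absolute size and did not pass the test. With the library set as a covariate it was 0.12 (adjusted p = 0.244), and the difference was 0.22 within the set with more non-unique reads and 0.02 within the other.

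THOC2 (ENSG00000125676, chrX:123600569-123733052), the large scaffold subunit of THO, had 167.0, 212.9 and 166.3 CPM in control and 196.6, 205.6 and 162.7 CPM in MTR4 KD. Its libraries again divided by library set, with control replicate 2 the highest of all. The log2 fold change was 0.05 (95% interval -0.25 to 0.35, adjusted p = 0.878) and -0.06 with the library set as a covariate (adjusted p = 0.351).

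**Figure D2:**
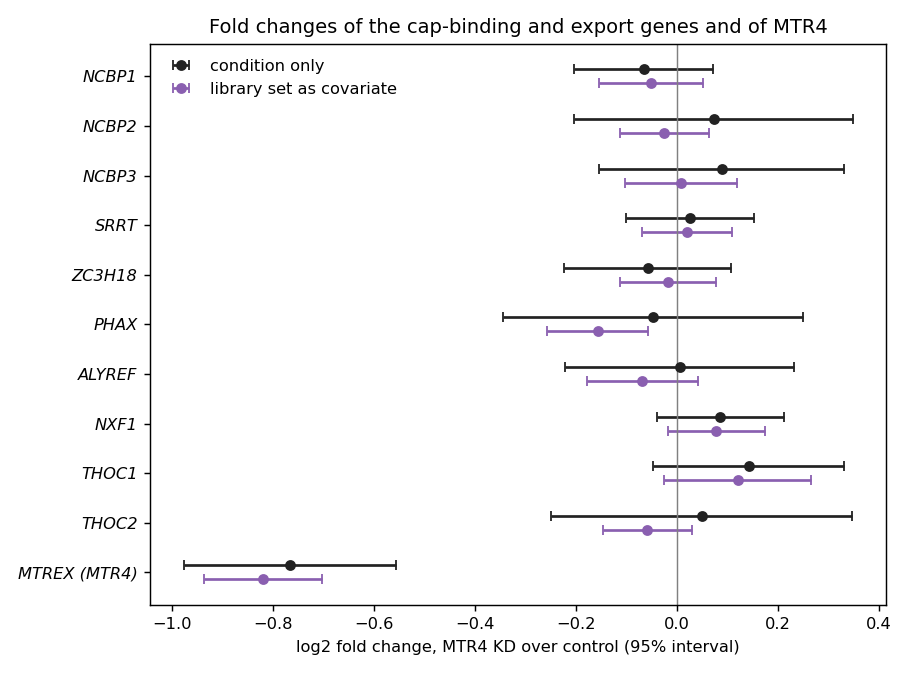
Log2 fold change of MTR4 KD over control with 95% intervals from edgeR, for the 10 factors and MTREX, with condition only (black) and with the library set as a covariate (purple). With condition only all 10 factor intervals hold 0 and MTREX lies at -0.77, and with the covariate the interval of PHAX lies below 0.

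The factors differed in how far the library sets moved them. The set with fewer non-unique reads was higher for THOC2 by 0.35 in control and 0.31 in MTR4 KD on the log2 scale. For PHAX the same differences were 0.32 and 0.34, for NCBP2 they were 0.31 and 0.28, and for NCBP3 they were 0.27 and 0.23. In ALYREF the difference was 0.13 in control and 0.29 in MTR4 KD. These 5 factors hold the widest intervals of the condition-only fit, and each moved more between library sets than between conditions. NXF1 (0.02 and 0.03) and SRRT (-0.02 and 0.06) hardly moved with the set, and ZC3H18 went the other way (-0.12 and -0.12). NCBP1 gave -0.10 and 0.02, and THOC1 gave 0.18 and -0.03. Among 9458 protein-coding genes with a mean of at least 10 CPM, the median absolute difference was 0.140.

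The difference between library sets was read beside the GC content of each canonical transcript. Across the 9458 genes, Pearson's r between both was -0.561, a description across genes of the same 6 libraries, which are not independent replicates. The median difference was 0.09 for the 3775 genes under 45% GC and -0.19 for the 2769 genes at 55% GC or more. THOC2 (38.3% GC), NCBP2 (40.8%) and PHAX (41.9%) were on the AT-rich side and higher in the set with fewer non-unique reads, and ZC3H18 (58.7%) was GC-rich and lower. ALYREF (57.4%) was GC-rich and yet higher in that set, and NCBP1 (40.3%) was AT-rich with little difference, and over the 10 factors r was -0.480. The part of GC content in the division of the libraries was not tested.

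**Figure D3:**
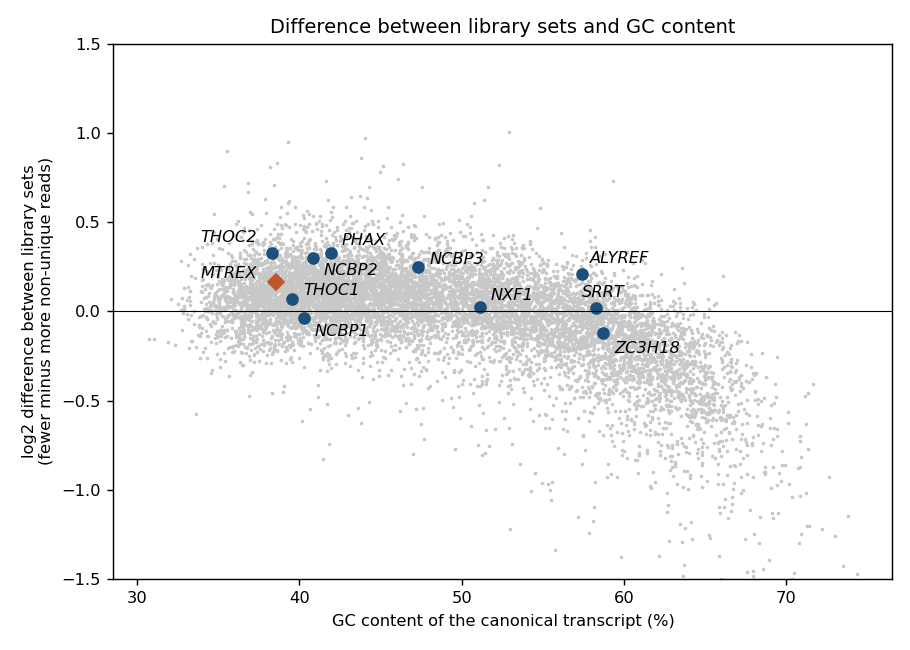
Log2 difference between library sets (fewer minus more non-unique reads, mean of both conditions, vertical axis) against GC content of the canonical transcript in percent (horizontal axis). Grey points are 9458 protein-coding genes, of which 14 lie beyond the axis limit of 1.5, blue points are the 10 factors and the orange diamond is MTREX. The cloud falls at high GC content, with ZC3H18 below 0 and THOC2, PHAX and NCBP2 near 0.3.

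Levels of different genes were compared as CPM per kilobase of merged exons. In control, ALYREF (44.7 ± 2.45, SD, n = 3) and SRRT (42.7 ± 0.573) were the highest, and their libraries overlapped. NCBP2 (28.1 ± 3.71), THOC2 (17.7 ± 2.6) and PHAX (13.9 ± 1.83) came next, each above the following factor in every control library. NCBP1 (11.3 ± 0.454), NXF1 (9.59 ± 0.10) and ZC3H18 (8.72 ± 0.518) followed without overlap, and NCBP3 (2.45 ± 0.269) and THOC1 (2.26 ± 0.169) were the lowest and overlapped. MTREX stood at 12.3 ± 1.30 in control, overlapping with PHAX and NCBP1, and at 7.22 ± 0.410 in MTR4 KD, below ZC3H18 and above NCBP3. The order of the 10 factors was otherwise the same in MTR4 KD. It depends on the length used. Per kilobase of the canonical transcript, chosen after the data were seen, SRRT (69.4), NCBP2 (68.3) and ALYREF (64.5) led in control and NCBP3 (2.82) was below THOC1 (8.67).

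Because MTREX fell and the factors did not pass the test, the balance of reads between them was computed within each library, where it does not depend on scaling. ALYREF had 0.934, 0.858 and 0.940 reads per MTREX read in control and 1.75, 1.5 and 1.4 in MTR4 KD. All 3 MTR4 KD libraries were above all 3 control libraries. The mean log2 ratio was higher by 0.76, a 1.70-fold difference, with 0.58 within the set with more non-unique reads and 0.92 within the other.

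The same held for every factor. NCBP1 had 0.888, 0.678 and 0.842 reads per MTREX read in control and 1.31, 1.24 and 1.33 in MTR4 KD. ZC3H18 had 1.03, 0.812 and 1.07 in control and 1.56, 1.45 and 1.73 in MTR4 KD. PHAX had 0.644, 0.670 and 0.639 in control and 1.2, 1.07 and 0.946 in MTR4 KD. The log2 difference ran from 0.70 for NCBP1 to 0.91 for THOC1, that is from 1.62-fold to 1.88-fold, and no group overlapped in any of the 10 ratios. Each had p = 0.1 in a two-sided exact permutation test, the smallest p that 3 against 3 can give, and adjusted p = 0.182 over the 20 ratios computed, so the design cannot reach 0.05. All 10 ratios share the MTREX reads and carry its fall, so they are not 10 separate results. The median log2 fold change over all genes tested was 0.01, and a gene with such a value would also rise against MTREX. The rise is therefore not particular to these factors. The share of all genes tested whose ratio to MTREX separated the groups was not computed.

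**Figure D4:**
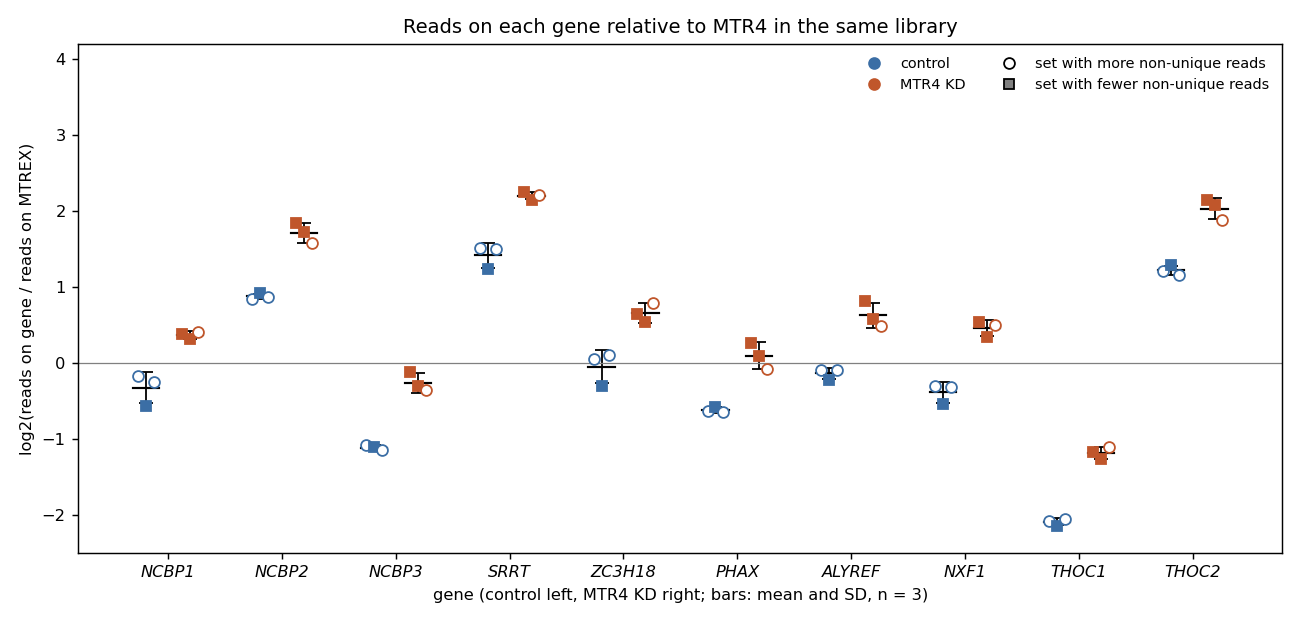
Log2 of reads on each factor over reads on MTREX in the same library, with control on the left and MTR4 KD on the right of each pair, points for libraries and bars for mean ± SD (n = 3). For all 10 factors the 3 MTR4 KD libraries lie above the 3 control libraries, by 0.70 to 0.91 in the mean.

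The other 10 ratios set the factors against each other. NCBP1 over NCBP2, the large over the small cap-binding subunit, was 0.496, 0.359 and 0.460 in control and 0.364, 0.378 and 0.445 in MTR4 KD, and the groups overlapped (exact permutation p = 0.5). ALYREF over SRRT was 0.326, 0.365 and 0.332 in control and 0.369, 0.338 and 0.301 in MTR4 KD (exact permutation p = 1). THOC1 over THOC2, both of the THO core, differed by 0.09 on the log2 scale (exact permutation p = 0.7). NCBP1 over SRRT was the 1 ratio without MTREX whose groups did not overlap. It was 0.311, 0.289 and 0.297 in control and 0.275, 0.280 and 0.286 in MTR4 KD. The log2 difference was -0.09 (exact permutation p = 0.1, adjusted p = 0.182). With no difference between groups of 3, a ratio separates with a probability of 0.1, so 1 of 10 is at that share. The remaining ratios, ALYREF over NXF1 and over THOC2, ZC3H18 and PHAX over SRRT, NCBP1 over NCBP3 and SRRT over ZFC3H1, overlapped between the groups with log2 differences of -0.16 to -0.05.

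Genes that act beside the 10 factors were followed in lists of 89 genes, of which 83 passed the filter on low counts. Of the 83, edgeR called 0, and 7 (8.43%) had an unadjusted p under 0.05, against 18.8% of all genes tested. limma-voom called 0, against 3.38% of all genes tested. DESeq2 called 1, against 8.36% of the genes to which it gave an adjusted p. The gene called was ZCCHC8, a scaffold of the NEXT complex that binds MTR4. The median log2 fold change of the 83 was 0.02. With the library set as a covariate, list medians ran from -0.07 for the TREX-2 subunits to 0.04 for the cap synthesis enzymes, beside -0.02 for the 10 factors. Of the other THO and TREX subunits and adaptors, 12 of 13 passed the filter. With condition only, 0 of them were called and their median was 0.02, and with the covariate the median was -0.03. In the condition-only edgeR fit THOC3, a THO subunit, had the smallest unadjusted p of that list (0.0271, adjusted p = 0.200). Its log2 fold change there was -0.20.

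ZCCHC8 had 25.4, 28.3 and 24.9 CPM in control and 32.5, 32.6 and 30.3 CPM in MTR4 KD, with no overlap. Of the 83 genes 18.1% did not overlap between the groups, against 24.7% of all genes tested. The log2 fold change of ZCCHC8 was 0.28 (adjusted p = 0.110 in edgeR and 0.0398 in DESeq2), and 0.24 with the library set as a covariate (adjusted p = 0.00804).

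With the library set as a covariate, 11 of the 83 genes were called (13.3%, against 20.2% of all genes tested), 6 higher and 5 lower. Those higher beside ZCCHC8 included SRSF3, an SR protein that serves as an adaptor for NXF1 (log2 fold change 0.15, adjusted p = 0.0175). CMTR2 of the cap synthesis enzymes (0.20, adjusted p = 0.0479) and NUP50 of the nuclear pore (0.13, adjusted p = 0.0484) were higher too. So were EIF4EBP2, which holds back the cytoplasmic cap-binding protein (0.14, adjusted p = 0.0272), and PABPN1, the nuclear poly(A)-binding protein (0.17, adjusted p = 0.0469). PABPN1 had -0.14 with condition only, and 39.3% of its exon bases are shared with a read-through gene on the same strand, so its value is uncertain. Those lower were RANBP1 (-0.20, adjusted p = 0.00581) and RAN (-0.15, adjusted p = 0.0207), which drive transport through the pore, RNPS1 of the exon junction complex (-0.16, adjusted p = 0.0206), DDX19B, the pore helicase that releases exported messenger RNA (-0.32, adjusted p = 0.0219), and CETN3 of the TREX-2 list (-0.26, adjusted p = 0.0476). Of the exon bases of DDX19B, 16.0% are shared with another gene on the same strand, which had 0 reads in every library. For genes on the opposite strand the share is 8.01%, so the value of DDX19B is uncertain too. Unlike PHAX, these 11 genes were not looked up in the fits that left out each library. Their calls may be no steadier than that of PHAX.

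**Figure D5:**
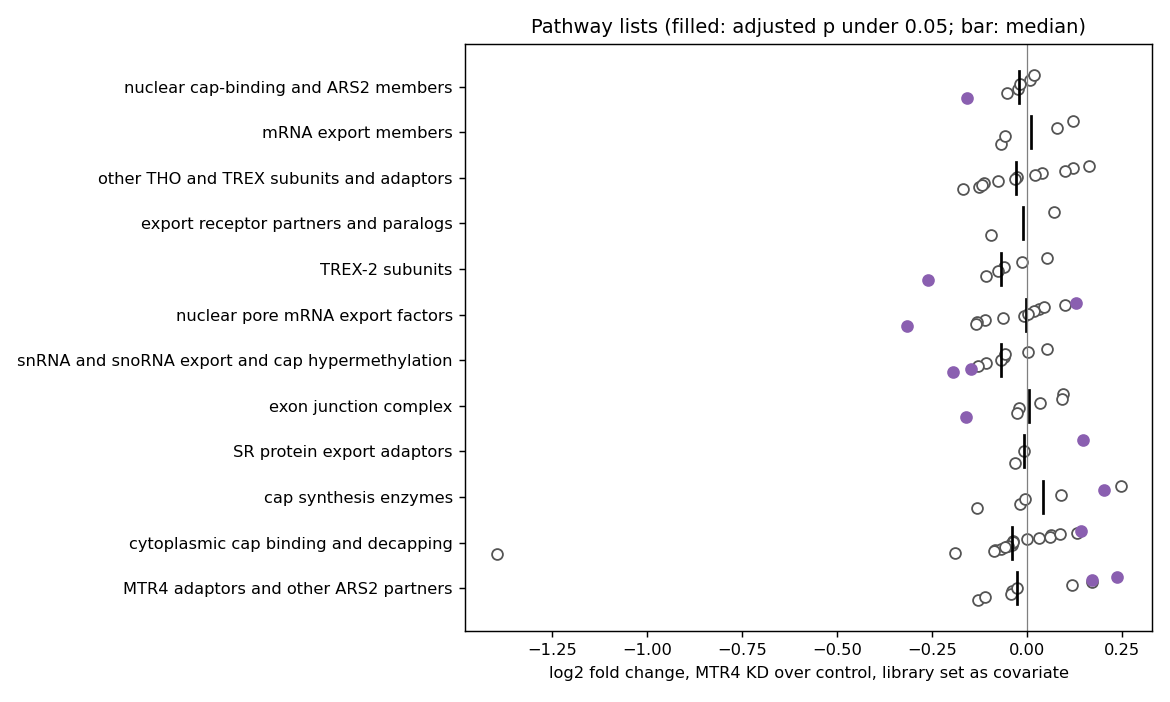
Log2 fold change of MTR4 KD over control with the library set as a covariate, 1 point a gene, for the 10 factors in their groups and the 83 tested genes of the other lists. Filled points have an adjusted p under 0.05 and bars are list medians. PHAX is the filled point among the factors, and the 11 other filled points lie on both sides of 0. The open point farthest to the left, at -1.40, is EIF4E3, with 3 to 46 reads in a library.

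The relatives named here were picked for being nearly silent, and they are relatives of NXF1 and NCBP2 only. NXF2, NXF2B, NXF3 and NXF5, relatives of NXF1, had at most 1 read in any library, and NCBP2L, a relative of NCBP2, had 0 to 10 reads. No exon base of the 10 factors is shared with another counted gene on the same strand. On the opposite strand, ALYREF overlaps ANAPC11 by 62 exon bases, THOC1 overlaps USP14 by 110, NCBP2 overlaps NCBP2-AS1 by 142 and THOC2 overlaps FERP1 by 610. MTREX overlaps PLPP1 on the opposite strand by 481 of its 6347 exon bases, and PLPP1 had 960 to 1416 reads in a library. Whether counting used the strand is not given in the sources used here, so reads in these short stretches cannot be assigned with certainty.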

How the data were processed

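The authors deposited, for each of 6 libraries, a table of unnormalized read counts by gene, with classes named as in HTSeq-count for reads not counted on a gene, which were left out of library sizes and tests (37.7% to 49.3% of all entries). The submitters' processing notes name HISAT2 2.1.0, HTSeq, DESeq2 and GRCh38. The strand setting is not given in the sources used here. Groups came from the labels. The 10 factors, the other lists and the library sets (over or under 30% non-unique alignments) were chosen with earlier results of these data known.

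Counts were tested in R 4.3.3 with edgeR 4.0.16 (filterByExpr with a minimum of 10 counts, TMM scaling, quasi-likelihood test, condition alone in the model, Benjamini-Hochberg over 18075 genes, called at adjusted p under 0.05). limma 3.58.1 (voom), DESeq2 1.42.0, other scalings and filters, the replicate block, the library set as a covariate and leaving out each library were alternatives. The code was checked on simulated counts, whose spread was set by hand and not estimated from these data. Named genes were the 10 factors, MTREX, up to 3 called genes per list and direction (none in the condition-only fit, so those called with the library set as a covariate were named, and THOC3 was named after its value was seen), silent relatives and overlapping genes. Symbols, lengths, GC content and shared exon bases came from GENCODE 44 lifted to GRCh37, positions from RefSeq on GRCh38. The paper's splicing methods name Ensembl release 84, whose exons may differ. Intervals cover the spread between libraries.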

Additional observations from a re-analysis of the deposited data

How the results depend on the processing

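MTREX kept its direction and its call under every scaling, filter, tool and left-out library that was run (log2 fold change -0.82 to -0.68 over the left-out libraries, adjusted p up to 0.0485). The factors called stayed at 0 of 10 except with the library set as a covariate, where 1 was called. The other pathway genes called were 1 with DESeq2 and 11 with that covariate. Over all genes tested, 650 were called, against 1363 with DESeq2, 3649 with the covariate and 137 to 803 over the left-out libraries, with 164 without control replicate 1, 183 without control replicate 3, 163 without MTR4 KD replicate 1 and 137 without MTR4 KD replicate 2. The cause was not tested.

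Among the 10 factors and their ratios, the values whose sign turned were these. ALYREF had -0.0035 with no filter on low counts, -0.00034 with limma-voom, -0.069 with the covariate and -0.065 to 0.098 over the left-out libraries. NCBP2 had -0.025 and THOC2 -0.059 with the covariate. Over the left-out libraries PHAX ran from -0.11 to 0.062, with 0.062 without control replicate 2 and 0.060 without MTR4 KD replicate 3, and THOC2 from -0.023 to 0.17. The log2 ratio differences ran from -0.096 to 0.053 for ALYREF over SRRT, -0.14 to 0.0039 for ALYREF over NXF1, -0.13 to 0.00089 for ALYREF over THOC2, -0.019 to 0.15 for THOC1 over THOC2 and -0.14 to 0.041 for PHAX over SRRT. Within the set with fewer non-unique reads NCBP1 over NCBP2 had 0.047 (against -0.14), NCBP1 over NCBP3 0.017 (against -0.16), ALYREF over THOC2 0.095 (against -0.05), NCBP1 0.0048 and NCBP3 -0.012. Within the other set ALYREF had -0.15, SRRT -0.023 and ZC3H18 over SRRT 0.0060. NCBP2 and THOC2 were below 0 within both sets. The median of the 10 factors was -0.021 with the covariate and ran from -0.01 to 0.10. The fit of PHAX without each library, with the covariate kept, was chosen after the data were seen. It was run over all genes, but its values were not read for the other pathway genes.

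With the replicate block, 0 of the 10 factors and 0 of the other pathway genes were called, 857 of all genes tested were called and MTREX had -0.76 (adjusted p = 0.00171). Deviations of same-numbered libraries correlated at -0.24, 0.325 and 0.352, and those of control replicate 1 correlated best with MTR4 KD replicate 3 (0.336), so the numbers did not pair the libraries. Changes within the intervals of the condition-only fit could not be told from none in that fit. RNA was measured in whole cells of 1 cell line, so protein amount, cap binding and export were not measured.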
